A study of Mus musculus with 15 samples.

Results

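Strand-asymmetric unmodified CGs are CG dinucleotides that gave many uTOP-seq reads on one DNA strand and none on the other. uTOP-seq reads out CGs that carry neither 5mC nor 5hmC, called uCGs, and counts the reads of each of the 2 cytosines of a CG separately. A CG of an autosome was taken as a one-strand CG when the 3 uTOP-seq replicates together gave 12 or more reads on one strand, with at least 2 reads in each replicate, and 0 reads on the other. The strand with reads is called the covered strand and the other the silent strand. This rule found 256348 one-strand CGs, or 1.26% of the 20383623 autosomal CGs, 114234 of them with their reads on the plus strand and 142114 with reads on the minus strand. Among the 692419 autosomal CGs with such coverage on at least 1 strand, they made up 37.0%. They were compared with the 387941 CGs that had 6 or more reads on both strands, called both-strand CGs.

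All libraries came from the genomic DNA of the mouse embryonic stem cell line E14TG2a, grown on gelatin with LIF and 15% fetal bovine serum. For uTOP-seq, 3 replicates of 300 ng DNA were sequenced. For hmTOP-seq, which reads out 5hmC, 2 technical replicates each of 500, 50 and 5 ng DNA were sequenced, and each input had 2 libraries labelled K, which are controls made without the BGT glucosyltransferase. It is not stated that the replicates came from separate cultures, and only 1 cell line was used, so the spread between replicates may be technical.

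In mammals, a CG reads as CG on both strands, and after replication the maintenance methyltransferase DNMT1 copies the methylation of the parental strand onto the new one, so that both cytosines of a CG usually share their state. TET dioxygenases oxidize 5mC to 5hmC. CG islands (CGIs) are CG-dense stretches, often at gene starts, whose CGs are mostly unmethylated. In TOP-seq a DNA oligonucleotide is tethered to the labeled cytosine, a DNA polymerase starts copying next to it, and the read starts at or near the CG and runs away from it, so that the 2 strands of a CG are read into opposite flanks.

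One-strand CGs with many reads are shown to let the bases before the CG be seen. They were taken from bodies of protein-coding genes, outside UTRs and repeats, with unique sequence on both sides, 4 per strand and at most 1 per gene. Each run of 30 bases is the covered strand of GRCm38, 5′ to 3′, and the capitals mark the CG and the 2 bases before it.
Cdk8, chr5:146261339-146261368, plus strand: cggcggatctttCCCGcaccctgttccaaa
Cmss1, chr16:57391660-57391689, plus strand: tagactccttggTCCGtctgccatggcgtg
Taco1, chr11:106066816-106066845, plus strand: cggtcgcgggttCCCGtgtcgttccggtct
Drg1, chr11:3194312-3194341, plus strand: aaataaatctggCCCGacagtggtgactca
Camk1d, chr2:5379288-5379317, minus strand: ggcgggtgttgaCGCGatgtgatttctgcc
Aida, chr1:183299438-183299467, minus strand: tggggacggaccCCCGcaccccattcttaa
Enpp2, chr15:54952617-54952646, minus strand: agctcccaggtcCCCGgcccgcagcccagg
Zdhhc18, chr4:133633549-133633578, minus strand: gcatctgcagagCCCGggctgggcgcagga

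Of these 8 CGs, 6 had 2 cytosines directly before the CG on the covered strand. For comparison, the nearest both-strand CG of each gene was taken on the strand that had more reads (plus where both were equal). Those of Cdk8, Cmss1 and Enpp2 had 2 cytosines directly before the CG, and those of the other genes did not. The ones of Aida, Enpp2 and Zdhhc18 are shown as examples.
Aida, both strands, chr1:183299446-183299475, plus strand: ggggtgcgggggTCCGtccccagggcagct
Enpp2, both strands, chr15:54952612-54952641, minus strand: ccaggtccccggCCCGcagcccaggctgtg
Zdhhc18, both strands, chr4:133632516-133632545, plus strand: ggatgcagagtgTCCGgaggggaaagagac

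The CG in an intron of Cdk8, a kinase of the Mediator complex, had 338, 335 and 281 reads on the plus strand in replicates 1 to 3 and 0 on the minus strand, the highest coverage of any one-strand CG. It lay in a CGI and had 138 and 114 5hmC reads in both 500-ng libraries. The CG in an intron of Cmss1 had 197, 152 and 125 uCG reads on the plus strand, antisense to the gene, and 150 and 133 5hmC reads. In Taco1, a translational activator of mitochondria, the intronic CG had 89, 81 and 54 reads, with 4 and 1 5hmC reads. The CG in Drg1, a GTP-binding protein, had 38, 49 and 37 reads, antisense to the gene, and 54 and 44 5hmC reads.

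On the minus strand, the CG in an intron of Camk1d, a calcium/calmodulin-dependent kinase, had 65, 56 and 55 reads. It is the only one of the 8 that is directly joined to another CG, which lies on the side of its reads. The CG in an intron of Aida, an axin-interacting protein, had 49, 40 and 28 reads on the minus strand, antisense to the gene, and 237 and 263 5hmC reads. The next CG, 8 nt away, had 48, 37 and 31 reads on the plus and 4, 3 and 2 on the minus strand, so that these neighbouring CGs were read mostly on opposite strands. The left CG was read on the minus strand and the right CG mostly on the plus strand. Among 5479 consecutive pairs of one-strand CGs 3 to 10 nt apart, 39 had this order. The pair in Aida is not among these pairs, since its right CG is a both-strand CG. The exonic CG in Enpp2, the lysophospholipase D autotaxin, had 59, 26 and 16 reads, and that in an intron of Zdhhc18, a palmitoyltransferase, had 23, 37 and 28 reads with no 5hmC read in either 500-ng library.

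The uTOP-seq libraries held 28412885, 23078739 and 20120568 reads and the 500-ng libraries 32502791 and 31918445. On the covered strand of one-strand CGs, the read count ranged from 2 to 338 with a median of 7 in replicate 1, from 2 to 335 with a median of 5 in replicate 2, and from 2 to 281 with a median of 5 in replicate 3. These reads chose the CGs and are given as a description. The sum over replicates had a median of 17 reads, 94786 one-strand CGs had 20 or more, and 100 had 100 or more. At the threshold, 28153 CGs with exactly 12 reads and none on the other strand were included. Just outside it lay 30354 CGs with 11 reads and none on the other strand, and 9190 with 12 reads and 1 on the other.

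Among all 692419 CGs with sufficient reads on a strand, the number of CGs was highest at 0 reads on the weaker strand and fell with each further read. The weaker strand had 0 reads at 256348 CGs, 1 or 2 at 146851, 3 to 5 at 126688, 6 to 11 at 113305 and 12 or more at 49227.

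**Figure D1:**
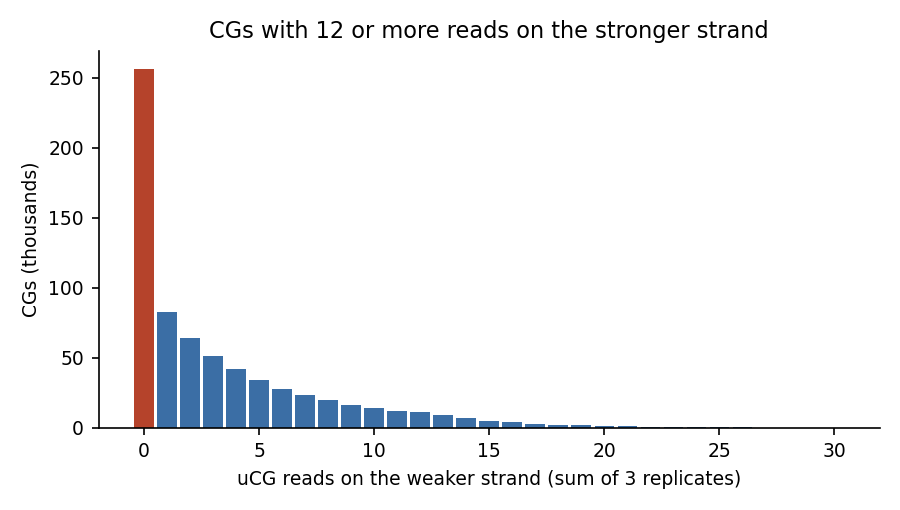
Number of CGs (y axis, in units of 1000) by uCG reads on the weaker strand, summed over 3 replicates (x axis, 0 to 30 reads shown), among CGs with 12 or more reads on the stronger strand. The red bar at 0 holds the 256348 one-strand CGs, and the next bar, at 1 read, is lower.

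To see whether the strand persisted in reads not used to choose it, CGs were chosen on 2 replicates (8 or more reads on one strand, at least 2 in each, and 0 on the other) and read in the third. In replicate 1, 8.67% of the reads of 398107 such CGs fell on the silent strand. In replicate 2 this was 9.17% over 474254 CGs, and in replicate 3 it was 8.76% over 514339 CGs, a mean of 8.87% ± 0.26 (SD, n = 3). At CGs with 4 or more reads on both strands in the other 2 replicates, the strand that was weaker there took 38.2%, 38.0% and 37.5% of the reads of the left-out replicate. The 3 values of each kind did not overlap. Of the CGs chosen as one-strand in 2 replicates, 81.3% ± 2.4 had no read on the silent strand in the third. With 12 or more reads in the 2 replicates in place of 8, the silent-strand share was 6.52%.

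The bases next to the CG differed between the covered and the silent strand. This was seen in the data and then described, so no test is given. On the covered strand, the base 2 before the C of the CG was a cytosine at 73.4% of one-strand CGs and the base directly before it at 56.8%, against 54.2% and 39.8% at both-strand CGs (averaged over both strands). On the other side of the CG, the first and second base were a guanine at only 16.3% and 14.1% of one-strand CGs, against 39.8% and 54.2% at both-strand CGs. Guanines there are the cytosines before the CG of the silent strand. A pair of cytosines before the CG, written CC, stood on the covered strand of 42.2% of one-strand CGs (41.0% to 43.3% over the 19 autosomes) and on the silent strand of 2.26% (1.963% to 2.683%). At both-strand CGs, CC preceded 19.7% of the strands. AA, GG, TT, GA and GT were among the pairs seen mostly on silent strands. AA preceded the CG on 0.38% of covered and 11.8% of silent strands, GG on 1.24% and 16.9%, and TT on 0.14% and 9.14%. For GA these shares were 0.31% and 9.10%, and for GT 0.64% and 6.67%. Over all autosomal CG strands, CC preceded 8.25%, AA 7.32%, GG 6.67%, TT 6.64%, GA 5.43% and GT 4.34%.

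**Figure D2:**
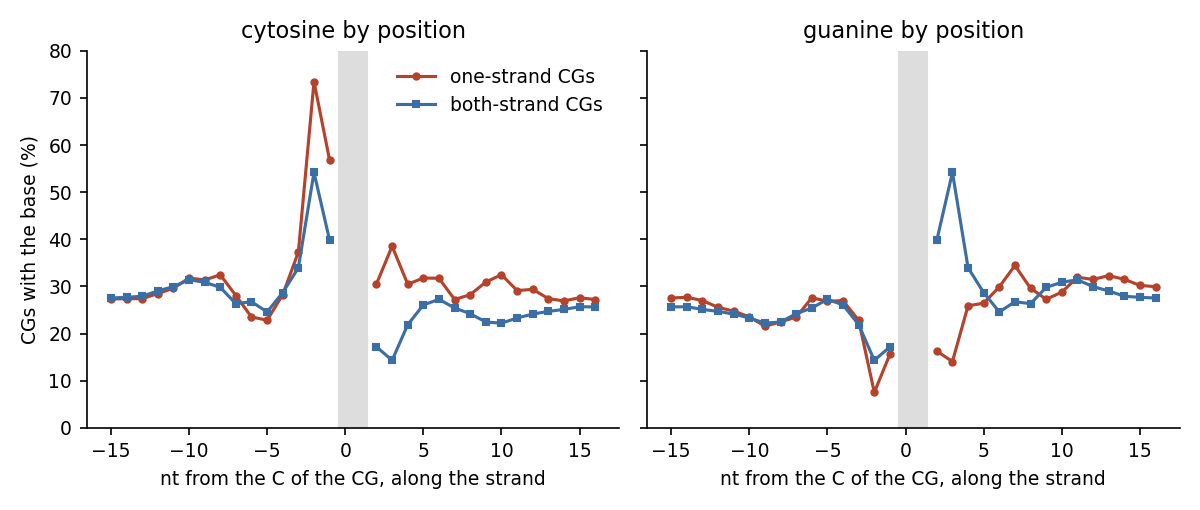
Share of CGs (y axis, percent) with a cytosine (left) or a guanine (right) at each position along the covered strand (x axis, nt from the C of the CG, the grey band is the CG), for one-strand CGs (red) and both-strand CGs (blue, mean of both strands). The cytosine peak 2 bases before the CG reaches 73.4% in one-strand CGs, and the guanine peak 3 nt after the C, 54.2% in both-strand CGs, is absent from them.

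The same bases went with coverage over all CGs of the autosomes. A strand with CC before the CG had 1.77, 1.42 and 1.23 uCG reads in replicates 1 to 3, the highest of the 16 pairs of bases, and a strand with TT had 0.157, 0.136 and 0.114, the lowest. CA (1.16, 0.924 and 0.817 reads) and CT (1.01, 0.821 and 0.722) came next to CC. The modification of each context was not measured in another way, so that a difference in modification and one in readout cannot be told apart.

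Of the 238538 CGs with sufficient reads whose stronger strand alone had CC, 44.2% were one-strand CGs, against 14.5% of the 20373 CGs whose weaker strand alone had CC and 11.04% of the 25732 CGs with CC on both strands. With CC on neither strand the share was 35.6% of 407776 CGs, close to the 37.0% of all, and these were 145179 of the one-strand CGs. One-strand CGs were therefore not limited to the CC context.

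One-strand CGs more often had a close neighbour on the side into which the silent strand would have been read than on the other side. Reads of the plus strand run to the left of the CG on the reference and those of the minus strand to the right, and the flank holding the reads is called the read side and the other the silent side. The next CG lay a median of 29 nt away on the read side and 17 nt away on the silent side, a difference of 12 nt that ranged from 11 to 14 nt over the 19 autosomes and was positive in 19 of 19 (sign-flip permutation test, two-sided, with 1 value per autosome, p adjusted over 7 tests by the Benjamini-Hochberg method = 1e-05, the smallest the permutations can give). Autosomes are parts of the same libraries, so this p and those that follow measure consistency along the genome, not between samples. On the silent side, 37.7% of one-strand CGs had another CG within 10 nt, against 18.7% on the read side and 11.4% on either side of both-strand CGs. The next CG was nearer on the silent side at 60.95% of one-strand CGs and nearer on the read side at 36.98%. The nearer of the 2 neighbours was a median of 12 nt from a one-strand CG and 23 nt from a both-strand CG, and the difference of −11 nt was negative in 19 of 19 autosomes (adjusted permutation p = 1e-05, same test). It was −8 nt without uTOP-seq replicate 1 and −7 nt without replicate 2 or 3, with the same call.

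**Figure D3:**
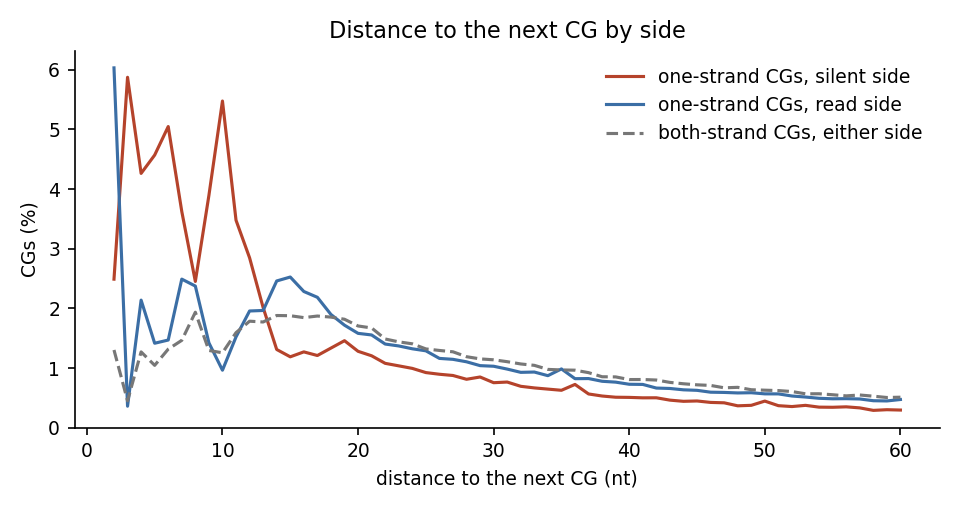
Share of CGs (y axis, percent) whose next CG lies at each distance (x axis, 2 to 60 nt), for the silent side (red) and read side (blue) of one-strand CGs and for either side of both-strand CGs (grey, dashed). The silent side exceeds the other curves from 3 to 13 nt, and the read side stands out at 2 nt with 6.03%.

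Over all CG strands of the autosomes, coverage was lower with another CG 3 to 10 nt away on the read side than at the same distance on the silent side. With the next CG 3 to 4 nt away on the read side, a strand had 0.403, 0.331 and 0.273 reads in the 3 replicates, and with the same distance on the silent side 0.764, 0.620 and 0.538. At 21 to 50 nt the values were 0.837, 0.677 and 0.596 for the read side and 0.784, 0.638 and 0.555 for the silent side, so that the sides differed much less there. At 7 to 10 nt the read side gave 0.620, 0.509 and 0.428 reads and the silent side 0.883, 0.704 and 0.626. Coverage did not rise steadily with distance, since strands whose read-side neighbour was over 100 nt away had 0.559, 0.456 and 0.398 reads. At 2 nt the order was the opposite, with 0.702, 0.590 and 0.495 reads for the read side and 0.473, 0.377 and 0.356 for the silent side.

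Pairs of consecutive CGs that were both one-strand CGs followed this order. Of 5479 such pairs 3 to 10 nt apart, 2066 pointed outward, with the left CG read on the plus and the right CG on the minus strand, 39 pointed inward, and 3374 were on the same strand. Outward pairs outnumbered inward pairs on 19 of 19 autosomes. At 11 to 20 nt there were 1197 outward and 865 inward pairs, and at 21 to 50 nt the order was turned, with 502 outward and 1165 inward pairs.

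Directly joined CGs, in which one CG follows the other with no base between, stood apart. Of 15465 one-strand CGs with a joined CG on the read side, 15448 (99.9%) were on the minus strand, and of 664 joined pairs in which both were one-strand CGs, 642 were both on the minus and 0 both on the plus strand. Over all 418028 joined pairs of the autosomes, the strand with the joined CG on its read side had 0.0345, 0.0253 and 0.0248 reads per CG in the 3 replicates when it was the plus strand and 1.37, 1.16 and 0.966 when it was the minus strand. The joined sequence itself reads the same on both strands. How reads at joined CGs were divided between them is not given in the sources used here, and its part in this difference was not tested. Of the 235638 one-strand CGs with no joined CG, 51.9% were on the minus strand, against 55.4% of all, and the minus strand held 51.7%, 51.7% and 52.4% of all uCG reads of the autosomes in the 3 replicates. Without CGs that have a joined CG, one-strand CGs made up 36.0% of the CGs with sufficient reads.

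The 80 nt on each side were also compared for repeats and for sequence that occurs more than once, to which reads cannot be mapped uniquely. At least 40 of the 80 nt were repeat-masked on the silent side of 10.6% and on the read side of 6.75% of one-strand CGs, a difference of 3.89 percentage points (SE 0.08 from leaving out each autosome in turn, higher in 19 of 19 autosomes, adjusted permutation p = 1e-05, same test), and on 7.47% of the sides of both-strand CGs. No 32-mer that occurs once in the genome was found in 1.93% of silent sides and 0.230% of read sides, a difference of 1.70 points (19 of 19 autosomes, adjusted permutation p = 1e-05). Of the sides of both-strand CGs, 0.226% held none. The silent side of 4944 one-strand CGs thus had no such 32-mer within 80 nt, and 220130 (85.9%) had a unique 32-mer and less than 40 masked nt on both sides. The rule itself asked for mapped reads on the read side and none on the silent side. The direction of both differences follows in part from this choice, so their p-values are not independent support.

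One-strand CGs were more frequent in CGIs and at gene starts than both-strand CGs. CGIs held 28.4% of one-strand and 12.6% of both-strand CGs (odds ratio [OR] = 2.75, 95% interval 2.68 to 2.82 from leaving out each autosome in turn). For 5′ UTRs the shares were 8.85% and 4.85% (OR = 1.90, 1.850 to 1.961), for the 2 kb upstream of transcripts 22.97% and 15.9% (OR = 1.58, 1.55 to 1.61), and for exons 21.9% and 16.9% (OR = 1.38, 1.35 to 1.41). Repeats held 9.25% and 7.84% (OR = 1.20, 1.18 to 1.22). These 5 elements were higher in 19 of 19 autosomes.

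Lower shares of one-strand CGs were found in introns (41.5% against 45.0%, OR = 0.869), 3′ UTRs (2.15% against 2.47%, OR = 0.868) and regions 50 kb or more from any protein-coding gene (7.67% against 9.05%, OR = 0.835), each in 19 of 19 autosomes. The test gave an adjusted permutation p = 1.25e-05 over the 10 elements for each of these 8 elements (sign-flip permutation test). Both-strand CGs had no minimum per replicate. Set against the CGs with sufficient reads instead, the direction differed for regions far from genes, where one-strand CGs were 38.5%, above the 37.0% of all. In introns and 3′ UTRs they were 35.8% and 34.1%. The call for regions far from genes was lost when any uTOP-seq replicate was left out, with ORs of 0.985, 0.985 and 1.01 without replicate 1, 2 and 3 (adjusted permutation p = 0.41, 0.229 and 0.77). The other 7 kept direction and call. Their ORs were nearer 1 for CGIs (2.04 to 2.15), 5′ UTRs (1.57 to 1.63), upstream regions (1.32 to 1.35) and exons (1.21 to 1.23). They were also nearer 1 for introns (0.900 to 0.909) and 3′ UTRs (0.892 to 0.921), and higher for repeats (1.22 to 1.26). CGI shores, the 2 kb next to a CGI, were slightly lower (OR = 0.967, adjusted permutation p = 0.00997, 13 of 19 autosomes), but this direction turned to an OR of 1.07 with 8 or more reads (adjusted permutation p = 1.11e-05) and 1.10 at 12 to 24 uCG reads over both strands (adjusted permutation p = 1.25e-05), and without 1 uTOP-seq replicate the OR was 0.903 to 0.913. The 2 kb downstream of transcripts did not differ beyond the spread over autosomes (OR = 0.990, 95% interval 0.957 to 1.02, adjusted permutation p = 0.18), but passed the test without 1 uTOP-seq replicate (OR = 0.9630 to 0.9749, adjusted permutation p = 0.000833 to 0.0252).

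Most of these differences shrank once close neighbours were set aside. Among CGs with no other CG within 10 nt on either side, a comparison chosen after seeing the data, the OR was 1.37 for CGIs, 1.16 for upstream regions and 1.12 for 5′ UTRs, and it rose to 1.46 for repeats. For exons it turned to 0.937 (adjusted permutation p = 0.000375), for intergenic CGs to 1.09 (adjusted permutation p = 0.000257) and for shores to 1.07 (adjusted permutation p = 0.00015).

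In genes, one-strand CGs lay on the antisense strand more often than on the sense strand, the strand that has the sequence of the transcript. Of the 158146 one-strand CGs in the body of protein-coding genes of 1 direction, 74605 had their reads on the sense and 83541 on the antisense strand. The sense share of 47.2% differed from 50% by −2.83 points (SE 0.14), ranged from 45.3% to 48.4% over autosomes and was below 50% in 19 of 19 (adjusted permutation p = 1e-05, same test). Without 1 uTOP-seq replicate the difference was −1.95, −2.10 and −1.73 points (replicate 1, 2 and 3 left out), below 50% in 19 of 19 autosomes each time. The sense share was 46.2% in exons, 47.7% in introns and 45.5% in 5′ UTRs. In 3′ UTRs it was 51.7% of 5093 one-strand CGs, with 4 of 19 autosomes below 50%. At both-strand CGs of the same gene bodies, 49.9%, 50.1% and 49.8% of the reads were on the sense strand in the 3 replicates.

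This antisense excess was found in CGIs and not outside CGIs and shores, and shores were not examined on their own. In the CGIs of gene bodies, 41.8% of 53051 one-strand CGs were on the sense strand (40.1% to 44.4% over autosomes), whereas outside CGIs and shores 50.5% of 76405 were (48.5% to 52.4%), and the ranges over autosomes did not overlap. Both values were computed after seeing the data. Tested as the whole set was, the value outside CGIs and shores was above 50% by 0.48 points (adjusted permutation p = 0.0403, 13 of 19 autosomes), which turns the direction. Among CGs with no other CG within 10 nt, the sense share differed from 50% by −0.54 points (adjusted permutation p = 0.00622, 16 of 19 autosomes).

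Around gene starts, the strand of one-strand CGs changed over. Of 15312 one-strand CGs in the 250 nt before the start of the nearest protein-coding gene, 65.9% were on the sense strand, and of 6857 between 500 and 250 nt before it, 59.0%. In the 250 nt after the start the share was 45.7% of 19095, between 250 and 500 nt after it 37.3% of 16028, and between 500 and 750 nt 40.7% of 10428. The share was above 50% on 19 of 19 autosomes in both bins before the start and below 50% on 19 of 19 in the 4 bins up to 1000 nt after it. Among all autosomal CGs with CC on 1 strand only, CC was on the sense strand at 50.9% in the 250 nt before the start, at 44.2% in the 250 nt after it, near the 45.7% of one-strand CGs there, and at 44.8% between 250 and 500 nt after it. In CGIs of gene bodies CC was on the sense strand at 45.3% of such CGs, and in gene bodies outside CGIs and shores at 50.7%. The part of this composition in the strand of one-strand CGs was not tested.

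**Figure D4:**
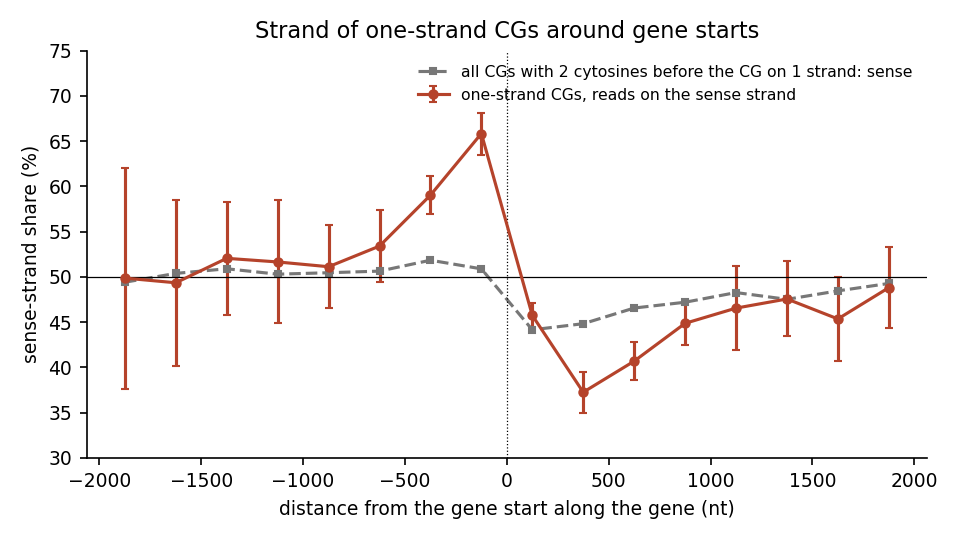
Share of one-strand CGs whose reads are on the sense strand (red, y axis, percent, bars are the SD over 19 autosomes) in 250-nt bins around the start of the nearest protein-coding gene (x axis, nt, negative before the start), with the share of all autosomal CGs with 2 cytosines before the CG on 1 strand only that have them on the sense strand (grey, dashed). The red curve is highest, 65.9%, directly before the start and lowest, 37.3%, between 250 and 500 nt after it.

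One-strand CGs had fewer 5hmC reads than both-strand CGs. The 500-ng libraries, whose counts merge both strands of a CG, had 4.49 and 4.29 5hmC reads per one-strand CG and 6.90 and 6.60 per both-strand CG. The ratio was 0.650 (95% interval 0.633 to 0.667 from leaving out each autosome in turn), or −0.62 on the log2 scale, and it was below 1 in 19 of 19 autosomes (adjusted permutation p = 1e-05, same test). At least 1 5hmC read was found at 54.7% and 55.3% of one-strand CGs and at 69.3% and 70.2% of both-strand CGs. The difference between the classes was larger than that between the replicates. Both classes were above the mean of all autosomal CGs, 1.58 and 1.55 reads. The 500-ng controls without BGT had far fewer reads, 0.000768 per one-strand CG in both (197 reads each) and 0.00114 and 0.00113 per both-strand CG (441 and 438 reads), but ratios of 0.676 and 0.681, and of 0.754 and 0.810 outside CGIs and shores, close to those of the labelled libraries. The control ratios were 1.01 and 0.560 at 50 ng and 1.3996 and 1.3428 at 5 ng, on 54 to 160 reads at one-strand CGs. A difference in 5hmC and one in how well a CG is read out cannot be told apart by these ratios.

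The other inputs gave similar ratios, 0.644 and 0.642 in the 50-ng libraries (2.92 and 2.76 reads per one-strand CG) and 0.655 and 0.654 in the 5-ng libraries (1.84 and 1.89 reads). Outside CGIs and shores, one-strand CGs had 6.58 and 6.30 and both-strand CGs 8.19 and 7.84 5hmC reads in the 500-ng libraries, a ratio of 0.804 (0.795 to 0.813, −0.32 on the log2 scale, 19 of 19 autosomes, adjusted permutation p = 1e-05). Within CGIs the ratio was 0.406, with 1.05 and 0.967 reads per one-strand CG and 2.58 and 2.39 per both-strand CG, and in each of the 10 elements it was below 1 on 19 of 19 autosomes.

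5hmC reads rose in steps with the uCG reads on the weaker strand. CGs with 0 reads there had 4.49 and 4.29 5hmC reads, those with 1 or 2 had 5.62 and 5.37, those with 3 to 5 had 6.54 and 6.23, those with 6 to 11 had 7.58 and 7.23, and those with 12 or more had 9.89 and 9.27. The stronger strand had a median of 17 uCG reads in each of the first 4 classes and 21 in the last. Because both classes were not equal in total uCG reads, CGs with 12 to 24 uCG reads over both strands were compared on their own, and the ratio was 0.727, and 0.884 outside CGIs and shores. With both-strand CGs weighted to the pairs of bases before the CG found at one-strand CGs, a choice made after seeing the data, the ratios were 0.663 and 0.850.

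**Figure D5:**
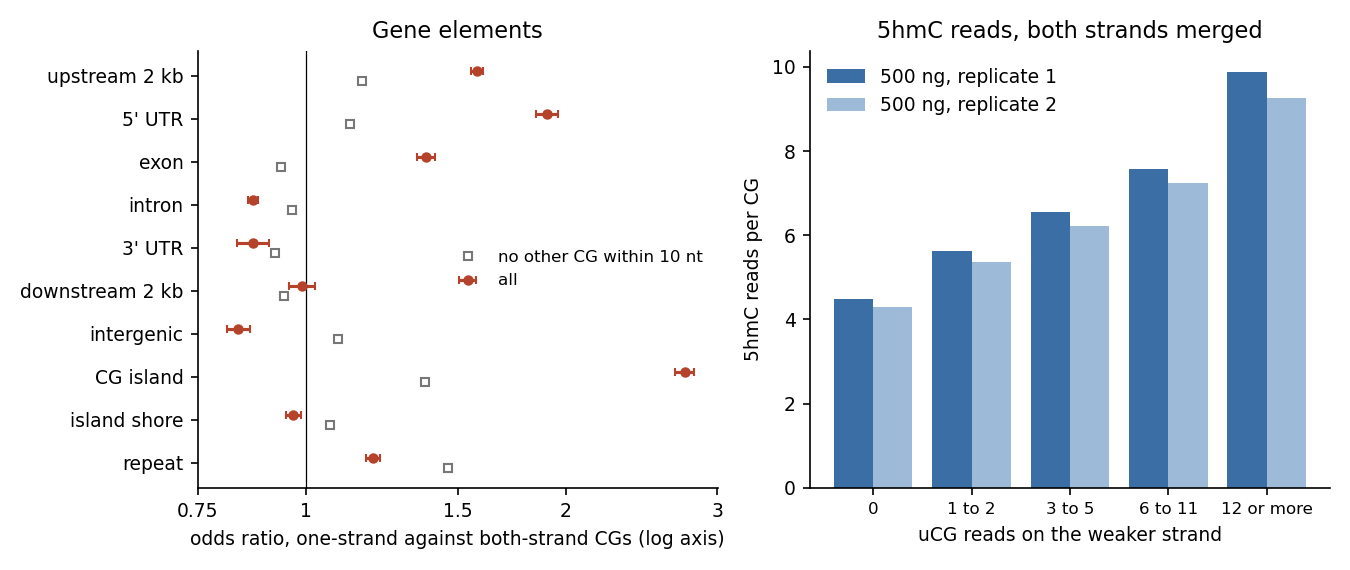
Left, odds ratio of each gene element in one-strand against both-strand CGs (x axis, log scale), for all CGs (red, bars are 95% intervals from leaving out each autosome in turn) and for CGs with no other CG within 10 nt (open squares, no interval); CGIs have the highest value, 2.75, and exons move from 1.38 to 0.937. Right, 5hmC reads per CG in both 500-ng libraries (y axis) by uCG reads on the weaker strand (x axis), from 4.49 and 4.29 at 0 reads to 9.89 and 9.27 at 12 or more.

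The 5hmC counts also went with the bases before the CG. Over all autosomal CGs, those with CC on neither strand had 1.23 and 1.22 5hmC reads in the 500-ng libraries, those with CC on 1 strand 3.36 and 3.23, and those with CC on both 4.78 and 4.49, and this order was found on 19 of 19 autosomes. Within each of these classes one-strand CGs had fewer 5hmC reads than both-strand CGs: 3.27 and 3.16 against 5.37 and 5.19 with CC on neither strand, 6.11 and 5.77 against 9.78 and 9.26 with CC on 1 strand, and 5.25 and 4.90 against 10.97 and 10.25 with CC on both.

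One-strand CGs were spread over the genome. They made up between 35.1% (chromosome 17) and 40.6% (chromosome 14) of the CGs with sufficient reads on the 19 autosomes, and 16363 of 20807 autosomal protein-coding genes (78.6%) held at least 1 in their body, with a median of 8. The 10 genes with the most were long or overlapping genes: Gm20388, annotated over 4435 kb on chromosome 8, had 1658, Fgfr2, a receptor of fibroblast growth factors annotated over 2961 kb, had 542, Gse1, which lies within Gm20388, had 256 and Camta1, a calmodulin-binding transcription activator, had 203. The other 6 were entries of the protocadherin cluster of chromosome 18 that overlap each other: Gm42416 with 305, Gm37388 and Gm37013 with 288 each, Pcdhga2 and Pcdhga1 with 166 each and Pcdhga3 with 160. In these 10 genes, one-strand CGs were 34.4% to 38.3% of the CGs with sufficient reads, near the 37.0% of the background.

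The genes of 4 lists were examined over the body and 2 kb on each side. All 20 pluripotency factors had one-strand CGs, 490 in total with a median of 22.5 per gene, or 35.7% of their CGs with sufficient reads. The most were in Esrrb (97), an orphan nuclear receptor of the naive state, Tbx3 (47), a T-box factor, and Nr5a2 (42), a nuclear receptor. All 13 autosomal genes of DNA methylation and demethylation had them, 294 in total or 34.0%, with 64 in Tet1 and 33 in Tet3, both 5mC dioxygenases, and 41 in Dnmt3a, a de novo methyltransferase. Of 25 imprinted genes, expressed from 1 parental allele, 24 had one-strand CGs, 374 in total or 41.1%, the most in Gnas (63), which encodes a G protein subunit, Kcnq1 (44), a potassium channel, and Slc38a4 (30), an amino acid transporter. All 20 Polycomb genes had them, 504 in total or 39.3%, the most in Jarid2 (77), Cbx7 (67) and Kdm2b (62), which belong to or recruit the repressive complexes. Over all autosomal protein-coding genes with 2 kb on each side, 16963 of 20807 had one-strand CGs, the share was 37.6% and the median 8 per gene. No test was made between the lists and this background. Totals add up the genes, so a CG within reach of more than 1 gene was counted for each.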

How the data were processed

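Coverage of unmodified CGs (uTOP-seq, 3 replicates) and of 5hmC (hmTOP-seq, 500, 50 and 5 ng, 2 technical replicates and 2 controls each) was analysed in E14TG2a cells. For hmTOP-seq, the authors trimmed the reads, filtered them on length and mapping quality, mapped them to mm10, removed duplicates without molecular identifiers and assigned reads to CGs. For uTOP-seq they refer to an earlier procedure, whose duplicate removal and division of reads between close CGs are not given in the sources used here. The deposited values are raw read counts per CG, by strand for uTOP-seq and with both strands merged for hmTOP-seq, with no normalization. Counting error is therefore a lower limit of the error.

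All positions were checked to lie on a CG of GRCm38. The reading direction was taken from stretches of 50 or more unknown bases: in the 40 nt before such a stretch, plus-strand reads numbered 142 and minus-strand reads 11, and in the 40 nt after it 15 and 271. Gene elements came from GENCODE mouse release M21 with 21755 protein-coding genes, and CGIs (at least 200 bp, GC share of at least 0.5, observed over expected CG of at least 0.6) and soft-masked repeats from the sequence. A CG may lie in several elements. Differences were computed per autosome and tested by a sign-flip permutation test (two-sided, 100000 permutations of the 19 autosome values) and a threshold of 0.05 on the adjusted p, over the 10 elements and over the 7 other tests. Intervals came from leaving out each autosome in turn. Python 3.11.15, numpy 2.4.6, scipy 1.17.1 and pandas 2.3.3 were used, and the calculation was tested on simulated CGs of known outcome.

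The rule for the one-strand CGs, the lists and the tests were chosen with earlier results of these data known. The genes named are the 10 with the most one-strand CGs in their body and up to 3 per list with the most in the body and 2 kb around it. The CGs shown are 4 per strand, taken in order of reads from those that met the limits given with the sequences and some further limits. Their genes also had to hold a both-strand CG, and not every autosome was searched. CGs with more reads may therefore meet the limits given with the sequences. Alternatives covered the read thresholds, each replicate left out, other inputs, matched coverage, unique flanks, exons or introns alone and shorter flanks.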

Additional observations from a re-analysis of the deposited data

How the results depend on the processing

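No paired analysis was possible because no groups of libraries were compared, so that there were no replicate numbers to pair; the classes of CGs were compared within each library and the tests within each autosome. Of 205 recalculations under other settings, 174 kept direction and side of the threshold. Of the 53 whose setting was chosen after seeing the data, those without joined CGs, with CC on exactly 1 strand, with no other CG within 10 nt, by CGI and weighted by context are named as such in what follows or above.

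The share of one-strand CGs was 38.1% with 8 or more reads, 36.3% with 20 or more, 48.96% with 0 or 1 read on the other strand, 36.0% without joined CGs, 30.6% with no other CG within 10 nt, 41.8% with CC on exactly 1 strand, and 46.2% to 47.96% when 1 uTOP-seq replicate was left out, where 8 reads were required. The held-out silent-strand share was 6.52% with 12 or more reads and 9.23% without joined CGs. The sense share moved to 0.48 points above 50% outside CGIs and shores, and it was −2.10 to −1.73 points from 50% without 1 uTOP-seq replicate.

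On the log2 scale, the downstream odds ratio was 0.0197 with 8 or more reads, 0.0297 at 12 to 24 uCG reads, 0.00684 with unique flanks, −0.0839 with no other CG within 10 nt, −0.0515 with CC on exactly 1 strand, and −0.0544 to −0.0367 without 1 uTOP-seq replicate. That of shores was 0.0954 with 8 or more reads, 0.134 at 12 to 24 uCG reads, 0.0941 with no other CG within 10 nt, −0.0232 with 0 or 1 read on the other strand, −0.0169 without joined CGs and −0.00154 with CC on exactly 1 strand. Those of intergenic CGs and exons were 0.126 and −0.0945 with no other CG within 10 nt, and the intergenic value was −0.0222 to 0.00729 without 1 uTOP-seq replicate, where the call was lost each time (adjusted permutation p = 0.229 to 0.77). Why these values moved was not tested. The 5hmC, neighbour-distance and flank results kept direction and call under every alternative run for them, although the nearest-CG difference of −11 nt was −8 to −7 nt without 1 uTOP-seq replicate; the 5hmC ratio ranged from 0.553 (20 or more reads) to 0.753 (share of CGs with a read in both replicates).

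With 12 or more reads on the covered strand, a silent strand read at a low rate is not told apart from one that is never read, and uTOP-seq counts give relative coverage, not the modified share of a cytosine.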

Other observations

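On the X chromosome, which the rule leaves out, 2053 of the 3980 CGs with 12 or more reads and at least 2 per replicate on a strand had no read on the other strand, a share of 51.6%. The 19 autosomes ranged from 35.1% to 40.6%. The X chromosome had few such CGs for its size, and no test was made.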
